A study of Homo sapiens and Mus musculus with 56 samples.

Results

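Genes known as targets of the FOXO transcription factors were followed in 5 human glioblastoma lines with and without a MET inhibitor. The 10 members are SESN1, SESN3, PIK3IP1, IRS2, FBXO32, TXNIP, CITED2, CCNG2, KLF6 and INSR. They were chosen by name as genes present on both array platforms, the mouse genes under the same symbol in mouse case. Earlier results of these data were known at that time, so shares of members set beside shares of all genes are descriptions. All 10 had a probe set of their own among 18417 human genes and among 19938 mouse genes.

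The study used 56 Affymetrix whole-transcript arrays, 28 of them human and 28 mouse. Per the labels, the human arrays hold RNA of cultured SF295, U118, U87M2, DBM2 and U251M2 cells treated for 7 days with the vehicle DMSO or with V-4084, a small-molecule inhibitor of the MET receptor tyrosine kinase whose final concentration in the medium the labels leave out. The mouse arrays hold tumours grown from the same 5 lines under the skin of the flank of nude mice, which lack mature T cells, and treated for 7 days with the vehicle MC 400 (0.5%) plus Tween 80 (0.05%) or with V-4084 at 30 mg/kg. Groups held 3 arrays, apart from 2 in both human SF295 groups, in the mouse SF295 vehicle group and in the mouse U251M2 group given V-4084. The labels give no animal ages, and nothing says that the arrays of a group came from separate cultures or animals, so p-values measure the spread between arrays, which may be technical.

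For 3 human arrays the labels conflict: the title gives DBM2 and V-4084, the cell line field SF295. They were used as DBM2. Their HGF levels of 5.17 to 5.50 lay near those of the DBM2 vehicle arrays, 5.31 to 5.41, and apart from the SF295 vehicle arrays, 9.91 to 10.14 (log2 intensity). Skeletal muscle genes moved together on same-numbered human and mouse arrays. Over 27 such pairs the deviations from the group means of 15 human and 16 mouse muscle genes had Pearson's r = 0.956 (permutation p = 2e-05) and Spearman's rho = 0.923 (permutation p = 3e-05), and r = 0.931 without the 2 farthest pairs. The platforms are therefore not treated as independent experiments, although the labels name cells for one and tumours for the other. Whether the human arrays hold RNA of cultured cells or of the tumours was not settled by the files, and they are called cells here only as labelled. On the human platform 3 V-4084 arrays, 1 each of SF295, DBM2 and U251M2, had a narrower range of values, with SDs over genes of 1.75 to 1.90 against at least 2.02 on the other human arrays.

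FOXO proteins are transcription factors that insulin and growth factor signalling holds in check. When receptors such as MET activate PI3K, the kinase AKT phosphorylates FOXO proteins, which then leave the nucleus. With low AKT activity FOXO proteins stay in the nucleus and switch on genes for growth arrest, stress defence, protein breakdown and for the insulin pathway's own receptors and adaptors, so the RNA of their targets is often read as a sign of low AKT signalling. Phosphorylated AKT and FOXO protein were not measured on these arrays.

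HGF, the ligand of MET, split the lines into high and low, and MET itself was lowest in U251M2. HGF RNA of vehicle cells had means of 11.46 ± 0.06 (SD, n = 3) in U87M2, 10.20 ± 0.18 (n = 3) in U118 and 10.03 ± 0.17 (n = 2) in SF295, against 5.37 ± 0.06 (n = 3) in DBM2 and 5.14 ± 0.07 (n = 3) in U251M2. MET RNA lay between 8.77 ± 0.05 (SD, n = 3) in U251M2 and 10.88 ± 0.11 (n = 2) in SF295. U118, U87M2 and DBM2 had means of 10.69, 10.60 and 10.43, and neighbours among them overlapped. With V-4084, MET fell in U87M2 by 1.06 (SE 0.16) on the log2 scale (limma adjusted p = 3.13e-05), while HGF differed by -0.03 (SE 0.12, adjusted p = 0.919). MET also lay lower, without overlap, in U118 (-0.61, adjusted p = 0.0767) and DBM2 (-0.46, adjusted p = 0.115), which did not pass. It differed by -0.01 in U251M2 and by 0.37 in SF295 (adjusted p = 0.605). The average of the 5 lines was called as lower for MET (-0.35, adjusted p = 0.00454). All values below are log2 intensities, so a difference of 1 is a doubling, and levels of different genes are not compared, since probe sets differ in brightness.

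In U87M2 cells, 6 of the 10 FOXO targets rose with V-4084, 1 fell and 3 did not pass the threshold of limma's test (Benjamini-Hochberg adjusted p under 0.05 over all genes, 3 arrays against 3). Over all human genes, 15% were called in this line, 5.37% as higher and 9.62% as lower. SESN3 rose most, by 1.85, followed by PIK3IP1, FBXO32, IRS2, SESN1 and CITED2, and TXNIP fell by 0.83. The median difference was 0.64 over the 10 members and 0.02 over all genes. The V-4084 arrays did not overlap the vehicle arrays for any of the 10 genes, 8 being higher and 2 lower, where 39.6% of all genes were free of overlap, 18% as higher and 21.6% as lower.

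**Figure D1:**
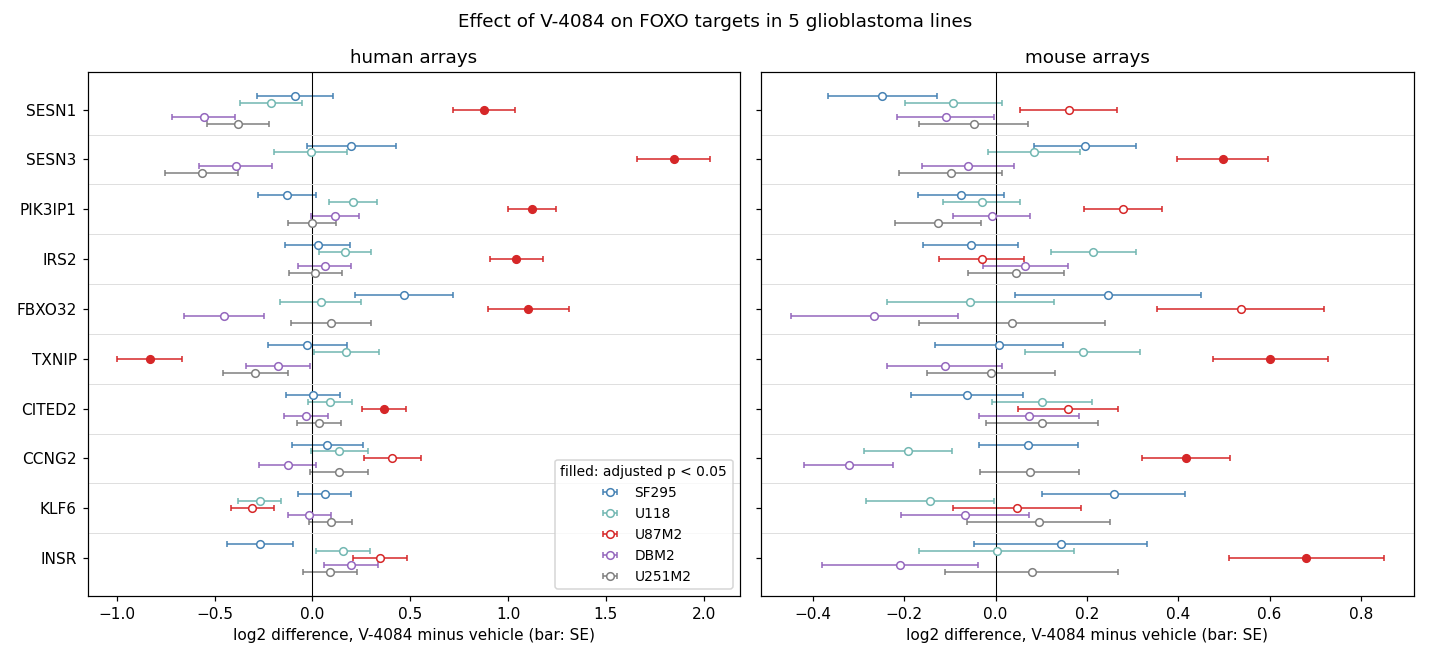
The difference in log2 intensity between V-4084 and vehicle (x axis) is plotted for each of the 10 FOXO targets (rows) and each line (colours), human arrays left and mouse arrays right, each panel with its own range. Points are limma estimates, bars are 1 SE, and filled points passed an adjusted p of 0.05. On human arrays U87M2 alone holds filled points, with SESN3 at 1.85 and TXNIP at -0.83, and on mouse arrays the 4 filled points are Sesn3, Txnip, Ccng2 and Insr of U87M2.

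PIK3IP1 and IRS2 act on PI3K signalling itself. PIK3IP1 is a membrane protein that binds the catalytic subunit of PI3K and inhibits it. Its level in U87M2 was 6.18, 5.96 and 6.26 on the vehicle arrays and 7.19, 7.33 and 7.24 on the V-4084 arrays. Every V-4084 array lay above every array of any other human group, none of which passed 6.58. PIK3IP1 rose 2.17-fold (log2 difference 1.12, SE 0.12, limma adjusted p = 2.19e-07, n = 3 and 3).

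IRS2 is an adaptor that links the insulin and IGF1 receptors to PI3K. Its level in U87M2 was 6.87, 7.20 and 7.09 with vehicle and 8.10, 8.15 and 8.04 with V-4084. The V-4084 arrays lay close together and above every vehicle array. IRS2 rose 2.06-fold (log2 difference 1.04, SE 0.13, limma adjusted p = 3.16e-06, n = 3 and 3). INSR, the insulin receptor and a target through which FOXO proteins are known to restore insulin sensing, was at 5.98, 5.92 and 5.79 with vehicle and 6.39, 6.31 and 6.02 with V-4084. The arrays did not overlap, yet the difference of 0.35 (SE 0.14) did not pass the test (adjusted p = 0.0974, 95% confidence interval 0.06 to 0.64).

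The sestrins SESN1 and SESN3 are stress proteins that restrain the growth kinase mTORC1, and SESN1 is also a p53 target. SESN3 in U87M2 was at 7.21, 7.52 and 7.46 with vehicle and at 9.14, 9.20 and 9.40 with V-4084. It went from a level like that of SF295 cells to one above the DBM2 vehicle arrays, which reached 8.64. The rise was 3.60-fold (log2 difference 1.85, SE 0.19, limma adjusted p = 6.26e-08, n = 3 and 3). SESN1 was at 7.29, 7.41 and 7.53 with vehicle and at 8.20, 8.23 and 8.44 with V-4084. SESN1 rose 1.84-fold (log2 difference 0.88, SE 0.16, adjusted p = 0.000245), and its treated arrays were the highest of all 28 human arrays.

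FBXO32, also called atrogin-1, is the ubiquitin ligase subunit through which FOXO proteins drive protein breakdown in wasting muscle. In U87M2 its level was 7.51, 8.10 and 7.85 with vehicle and 9.02, 8.88 and 8.88 with V-4084. The lowest treated array lay above the highest vehicle array by more than the spread among the treated arrays. FBXO32 rose 2.15-fold (log2 difference 1.10, SE 0.20, limma adjusted p = 0.000335, n = 3 and 3). The human muscle markers had a mean level of 5.88 to 6.10 on the vehicle arrays and 5.89 to 6.04 on the V-4084 arrays of this line. Only 3 of these 15 markers had a mean above the platform's median, and the part of muscle in the FBXO32 result was not tested.

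CITED2, CCNG2 and KLF6 act in the nucleus or on the cell cycle. CITED2, a co-regulator that competes with HIF1A for the coactivators CBP and p300, was at 8.70, 8.85 and 8.96 with vehicle and 9.24, 9.21 and 9.16 with V-4084. Its rise of 0.37 (SE 0.11, limma adjusted p = 0.0262, n = 3 and 3) was lost without either of vehicle arrays 1 and 2 or V-4084 arrays 1 and 2 (lowest difference 0.30). CCNG2, an atypical cyclin that accompanies cell cycle arrest, was at 7.15, 7.79 and 7.69 with vehicle and 7.95, 7.89 and 8.02 with V-4084. One vehicle array stood well below the others, and the difference of 0.41 (SE 0.15) had an adjusted p of 0.0601. It was 0.21 without vehicle array 1 and 0.53, then called, without vehicle array 2. KLF6, a zinc-finger factor with growth-suppressing roles, was at 9.03, 9.18 and 9.06 with vehicle and 8.77, 8.76 and 8.81 with V-4084, a difference of -0.31 (SE 0.11, adjusted p = 0.0613) of the opposite sign to most members. Without the 3 arrays of narrow range, none of them from U87M2, CCNG2, KLF6 and INSR were called as well (adjusted p = 0.022, 0.0258 and 0.0171).

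TXNIP binds thioredoxin and limits glucose uptake. It is known both as a FOXO target and, more widely, as a glucose-responsive target of the transcription factor MondoA (gene MLXIP) and its partner MLX. In U87M2 its level was 10.69, 10.70 and 11.07 with vehicle and 10.02, 9.87 and 10.08 with V-4084. All treated arrays were lower, which is the reverse of the other called members. TXNIP fell by 0.83 on the log2 scale (SE 0.17, limma adjusted p = 0.0007, n = 3 and 3), a 1.78-fold lower level.

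**Figure D2:**
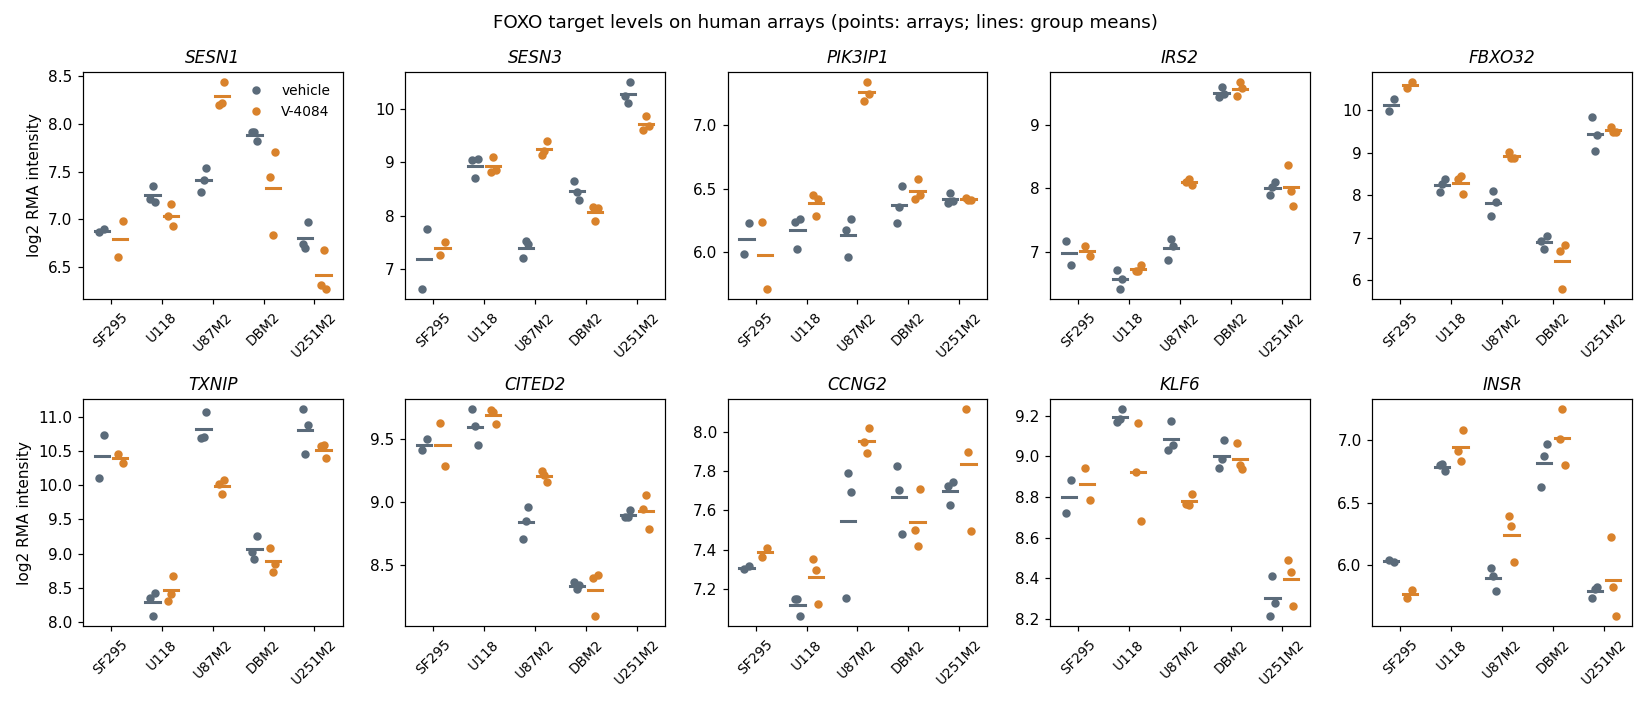
Each panel gives 1 FOXO target on the 28 human arrays, as log2 RMA intensity (y axis, own range per gene) by line (x axis). Points are arrays, grey for vehicle and orange for V-4084, and lines are group means. SESN1, SESN3, PIK3IP1, IRS2 and FBXO32 step up with V-4084 in U87M2, where TXNIP steps down from 10.82 to 9.99.

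The RefSeq promoter table (GRCh38.p14, 300 bases around a transcript start, most of them before it) held 15 windows for 9 of the 10 members. They were searched on both strands for a FOXO core, GTAAACA, for the insulin response element core, CAAAACA, and for CACGAG, an arm of the carbohydrate response element that MondoA binds. A FOXO core stood in 2 of the 15 windows, of 2 members (TXNIP and PIK3IP1). An insulin response element stood in 1 window (IRS2) and the carbohydrate response arm in 1 window (TXNIP). Of all 35116 human windows, 3.42% held the FOXO core, 4.92% the insulin response element and 6.78% the CACGAG arm. The matches did not overlap each other. They are shown because they lie in called genes of both directions, and matches of letters say nothing on binding.
TXNIP, chr1:145996580-145996829, minus strand, the 250 bases before the start, with the FOXO core and both CACGAG arms in capitals: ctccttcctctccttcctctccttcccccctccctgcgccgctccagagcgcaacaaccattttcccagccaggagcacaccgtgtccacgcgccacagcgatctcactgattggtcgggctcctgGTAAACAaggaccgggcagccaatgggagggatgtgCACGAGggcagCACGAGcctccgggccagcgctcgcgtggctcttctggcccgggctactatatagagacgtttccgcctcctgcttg
IRS2, chr13:109786584-109786683, minus strand, the 100 bases before the start, with the insulin response element (read here as its reverse complement) in capitals: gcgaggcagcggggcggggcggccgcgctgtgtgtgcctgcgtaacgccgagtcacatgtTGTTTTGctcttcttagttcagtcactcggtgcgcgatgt
PIK3IP1, chr22:31292454-31292483, minus strand, just after the second listed start, with the FOXO core (read as its reverse complement) in capitals: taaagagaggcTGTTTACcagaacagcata
In TXNIP the FOXO core begins at -124 and the CACGAG arms at -88 and -77 from the start. The IRS2 match begins at -40 and the PIK3IP1 match at +17.

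The paralogue of TXNIP, ARRDC4, an alpha-arrestin that also limits glucose uptake and is a further MondoA target, followed it. ARRDC4 in U87M2 was at 8.22, 8.54 and 8.74 with vehicle and 7.56, 7.59 and 7.76 with V-4084, a fall of 0.86 (SE 0.19, limma adjusted p = 0.0023). Over the 28 human arrays TXNIP and ARRDC4 had r = 0.967, and r = 0.651 after removal of the group means. These arrays share lines, and the value is a description. Of a list of 5 glucose-responsive genes and MondoA partners, 4 fell in U87M2 (ARRDC3 by 1.14, PFKFB3 by 0.98, ARRDC4 by 0.86 and MLX by 0.55), and MLXIP differed by -0.32 (adjusted p = 0.0533). Their median was -0.86 against 0.02 over all genes, of which 9.62% were called as lower.

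**Figure D3:**
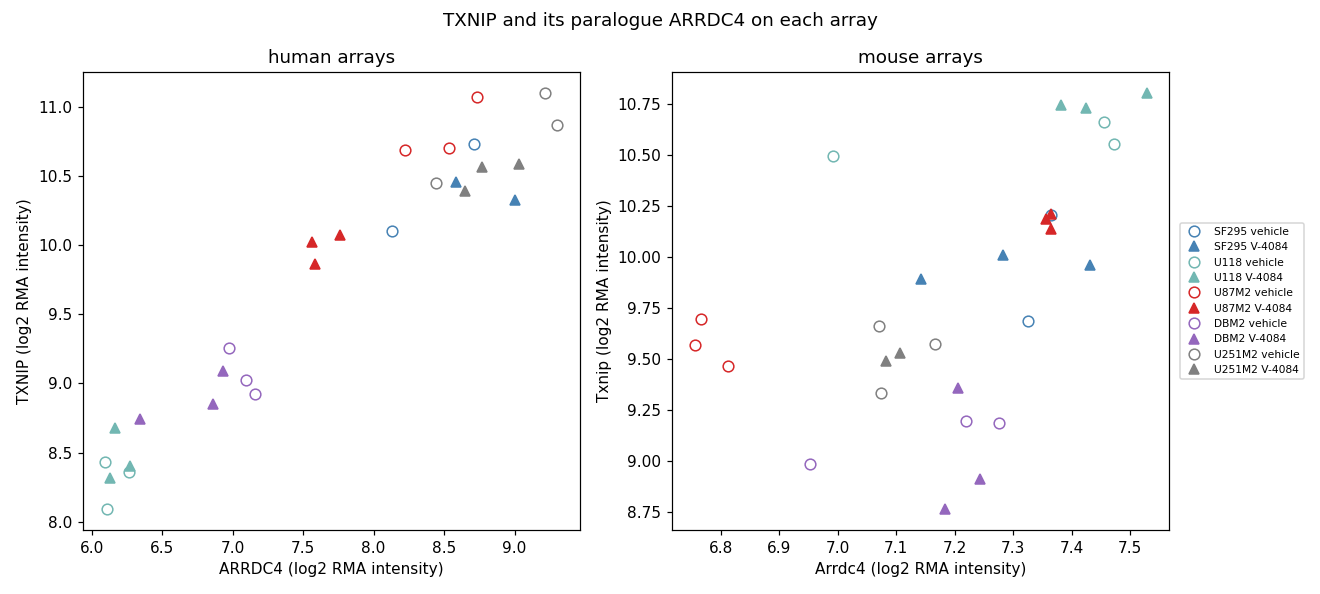
The log2 intensity of TXNIP (y axis) is plotted against that of its paralogue ARRDC4 (x axis) on each array, human left and mouse right; colours are lines, open circles vehicle and filled triangles V-4084. On human arrays the points run along 1 line with the U87M2 triangles below the circles, from 10.02, 9.87 and 10.08 against 10.69, 10.70 and 11.07, while on mouse arrays the U87M2 triangles lie above and to the right of the circles.

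A wider list of 24 other known FOXO targets moved both ways in U87M2 cells. Of these, 5 rose, 4 fell and 15 did not pass, and the median was 0.09. In the same comparison 5.37% of all human genes were called as higher and 9.62% as lower. The genes that rose were BCL2L11 by 1.89, TP53INP1 by 1.48, PDK4 by 1.06, TNFSF10 by 0.56 and CDKN1B by 0.47. BCL2L11 encodes the pro-apoptotic protein BIM, PDK4 restrains pyruvate entry into the citric acid cycle, TNFSF10 encodes the death ligand TRAIL, and CDKN1B encodes the cell cycle inhibitor p27. BCL2L11 was at 7.12, 7.23 and 7.20 with vehicle and 9.10, 8.97 and 9.16 with V-4084 (limma adjusted p = 4.78e-09), with a wide gap between the groups. The genes that fell were BNIP3 by 1.23, DEPP1 by 1.03, GADD45A by 1.02 and SOD2 by 0.45. GADD45A, a growth arrest and DNA damage gene that p53 and ATF4 also drive, was at 7.53, 7.36 and 7.63 with vehicle and 6.37, 6.48 and 6.61 with V-4084 (adjusted p = 2.22e-08). Of 11 measured p53 targets none rose and 4 fell, with TNFRSF10B lower by 0.67 (difference -0.67, adjusted p = 0.00313), RRM2B (-0.49), FAS (-0.48) and PLK3 (-0.39).

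Among the FOXO factors and the signalling genes upstream of them, calls went both ways. Of 26 FOXO factors and PI3K-AKT pathway genes, 22 had a probe set of their own, 3 rose, 2 fell and the median was -0.07. Over all human genes, 5.37% were called as higher and 9.62% as lower in this line. IGF1R, the IGF1 receptor, rose by 0.66 (SE 0.16, limma adjusted p = 0.00395) and the PI3K regulatory subunits PIK3R3 and PIK3R1 rose by 0.70 and 0.48. IRS1, the sister adaptor of IRS2, fell by 0.62 (SE 0.14, adjusted p = 0.00293), from 7.76, 7.25 and 7.68 to 6.93, 6.85 and 7.03. IRS1 and IRS2 thus moved in opposite directions on the same arrays. The catalytic subunit PIK3CD fell by 0.38, and FOXO1, FOXO3 and FOXO4 RNA differed by 0.08, -0.10 and 0.23, none of which passed.

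Of the cell type lists, that of fibroblasts moved most in U87M2 cells, and none of 8 adipocyte or 15 muscle markers was called. Of 9 fibroblast markers, 7 rose on the human arrays, from DCN by 1.97 to COL1A2 by 0.60, and the mean level of the list was 8.48 to 8.89 on vehicle arrays and 9.62 to 9.67 on V-4084 arrays. All 9 had a mean above the platform's median in these human lines. Of 7 macrophage markers none rose and CD68 fell by 0.78, and of 7 endothelial markers EMCN rose by 1.07 while PECAM1 (-0.87) and TEK (-0.48) fell. These 2 lists were dim, with 1 of 7 macrophage and 0 of 7 endothelial markers above the platform's median. In this line 5.37% of all human genes were called as higher and 9.62% as lower. The part of these markers in the result was not tested. In such bulk samples, fewer cells of a type and less RNA per cell cannot be told apart.

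In the other 4 human lines no member passed the test. limma called 0 of 10 members in SF295, U118, DBM2 and U251M2, where it called 0%, 0.755%, 0% and 0% of all genes. At an unadjusted p under 0.05 the members numbered 0, 1, 3 and 2, beside 1581, 1868, 4920 and 1110 of the 18417 human genes. PIK3IP1 and IRS2 differed by -0.13 to 0.21 and by 0.02 to 0.17 in these lines. The upper 95% confidence bounds were 0.46 for PIK3IP1 in U118 and 0.45 for IRS2 in U118, below the rises of U87M2.

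The sestrins lay lower, not higher, in DBM2 and U251M2, without passing the test. In DBM2, SESN1 was at 7.92, 7.92 and 7.82 with vehicle and 7.45, 6.83 and 7.71 with V-4084. The treated arrays lay below the vehicle arrays, and the difference was -0.56 (SE 0.16, limma adjusted p = 0.111). Without DBM2 V-4084 array 3 it was called, at -0.75, as was FBXO32 at -0.65 (-0.45 with all arrays). Without V-4084 array 2, which holds the lowest SESN1 value and is 1 of the 3 arrays of narrow range, the differences were -0.31 for SESN1 and -0.13 for FBXO32, and neither was called. In U251M2, SESN3 was at 10.24, 10.10 and 10.50 with vehicle and 9.60, 9.87 and 9.67 with V-4084. The groups did not overlap here either, with a difference of -0.57 (SE 0.19, adjusted p = 0.721). Members free of overlap numbered 3 of 10 in SF295, 4 in U118, 2 in DBM2 and 2 in U251M2, where 29.4%, 27.1%, 17.2% and 13.3% of all genes were. FBXO32 in SF295 cells was at 9.98 and 10.26 with vehicle and 10.52 and 10.65 with V-4084, a difference of 0.47 (SE 0.25, adjusted p = 0.607).

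The response of U87M2 differed from that of the other lines for most of the called members. The F test of a difference in effect between the 5 lines passed for 5 members (5.53% of all human genes), namely SESN3 (limma adjusted p = 3.18e-06), PIK3IP1 (0.000169), SESN1 (0.00072), IRS2 (0.00217) and FBXO32 (0.0096). TXNIP did not pass it, at an adjusted p of 0.0595. Set against the mean of the other 4 lines, the U87M2 effect was higher for the same 5 members, by 2.04 for SESN3, 1.19 for SESN1, 1.07 for PIK3IP1, 1.07 for FBXO32 and 0.97 for IRS2, and lower for TXNIP by 0.75 (difference -0.75, SE 0.19, adjusted p = 0.00897). That contrast called 8.78% of all genes, 3.85% as higher and 4.93% as lower. CITED2, called in U87M2, did not differ from the other lines by this test (0.34, adjusted p = 0.102).

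Averaged over the 5 human lines, 2 members were called, both higher, where 11.6% of all genes were called, 3.38% as higher and 8.23% as lower. PIK3IP1 rose by 0.26 (SE 0.06, limma adjusted p = 0.00535) and IRS2 by 0.26 (SE 0.06, adjusted p = 0.0104). Without U87M2 the averages were 0.05 and 0.07 and none of the 10 passed, so the call rested on that line. Without DBM2, the line with the conflicting label fields, 4 members were called. Among the wider FOXO targets TP53INP1 (0.24) and PDK4 (0.24) rose in the average, and GADD45A (-0.17) and BNIP3 (-0.37) fell. PDK4 was the one gene of that list called in a line other than U87M2, rising in U118 by 0.72 (SE 0.15, adjusted p = 0.0209).

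The untreated lines held very different levels of the same targets. The vehicle level differed between lines for 9 of 10 members by limma's F test, against 58.4% of all human genes, and not for PIK3IP1 (adjusted p = 0.106). SESN3 had the order U251M2 at 10.28 ± 0.20 (SD, n = 3), U118 at 8.93 ± 0.21, DBM2 at 8.46 ± 0.18, U87M2 at 7.40 ± 0.17 and SF295 at 7.19 ± 0.79 (n = 2). Its first 3 steps were free of overlap, and U87M2 and SF295 overlapped. IRS2 was at 9.50 ± 0.08 (SD, n = 3) in DBM2, 8.00 ± 0.10 in U251M2, 7.06 ± 0.17 in U87M2, 6.98 ± 0.27 (n = 2) in SF295 and 6.57 ± 0.15 in U118. Only U87M2 and SF295 overlapped among its neighbours. FBXO32 ran from 10.12 ± 0.20 (SD, n = 2) in SF295 through U251M2, U118 and U87M2 to 6.90 ± 0.16 (n = 3) in DBM2.

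The orders of the members were not shared. TXNIP was at 10.82 ± 0.22 (SD, n = 3) in U87M2, 10.81 ± 0.33 in U251M2 and 10.42 ± 0.44 (n = 2) in SF295, which overlapped, and lower at 9.07 ± 0.17 in DBM2 and 8.29 ± 0.18 in U118. SESN1 was highest in DBM2 at 7.89 ± 0.06 (SD, n = 3) and lowest in U251M2 at 6.80 ± 0.15, the line where SESN3 was highest. CITED2 ran from 9.59 ± 0.14 in U118 to 8.34 ± 0.03 in DBM2 and KLF6 from 9.19 ± 0.03 in U118 to 8.30 ± 0.10 in U251M2 (SD, n = 3). INSR ran from 6.82 ± 0.18 in DBM2 to 5.79 ± 0.04 in U251M2 and CCNG2 from 7.70 ± 0.06 in U251M2 to 7.12 ± 0.05 in U118 (SD, n = 3). PIK3IP1 spanned 6.11 to 6.42, and each neighbouring pair of lines overlapped.

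Each member was matched to the 2 other genes with the highest Pearson's r over the 28 human arrays, which share 5 lines, so the values describe mostly line differences. TXNIP was nearest to ARRDC4 (0.967) and EFCAB13 (0.956), CITED2 to BGN (0.961) and C1R (0.941), and IRS2 to SHC4 (0.960) and MFAP3L (0.956). SESN1 was nearest to AHI1 (0.922) and RUFY3 (0.921), KLF6 to VEGFC (0.922) and FAS (0.916), INSR to ATP10A (0.921) and AMOTL1 (0.915), and FBXO32 to CXXC5 (0.901) and MITF (0.896). SESN3 followed LRP4 (0.892) and LRP6 (0.882), PIK3IP1 followed EPYC (0.855) and NR3C2 (0.853), and CCNG2 followed PURG (0.816) and IGFBP7 (0.814). No member had another member as its nearest gene. The highest r between 2 members was 0.608, for FBXO32 and CITED2.

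On the mouse arrays, which were designed for mouse transcripts and were hybridized with tumours of human cells in a mouse host, 4 of 10 members rose in U87M2 tumours and none fell. limma called 3.72% of all mouse genes there, 2.49% as higher and 1.22% as lower. The 4 were Insr by 0.68, Txnip by 0.60, Sesn3 by 0.50 and Ccng2 by 0.42. The median over the 10 members was 0.35, against 0.00 over all genes. The arrays of 6 members were free of overlap, all higher, where 18.5% of all genes were, 10.1% as higher and 8.4% as lower.

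Sesn3 in U87M2 tumours was at 6.63, 6.78 and 6.69 with vehicle and 7.14, 7.25 and 7.21 with V-4084. The treated arrays were all higher, and the rise was 1.41-fold (log2 difference 0.50, SE 0.10, limma adjusted p = 0.00423, n = 3 and 3). SESN3 was thus called as higher on both platforms, and binding of human SESN3 RNA to the mouse probe set was not tested. Ccng2 was at 6.65, 6.74 and 6.78 with vehicle and 7.33, 7.11 and 6.98 with V-4084. Its rise of 0.42 (SE 0.10, adjusted p = 0.013) was lost without vehicle array 1 or V-4084 array 1, at a lowest difference of 0.32, and with the U87M2 arrays fitted alone (adjusted p = 0.0695).

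Txnip in U87M2 tumours was at 9.57, 9.46 and 9.70 with vehicle and 10.21, 10.19 and 10.14 with V-4084. All treated arrays were higher, the opposite of the human arrays of the same line. Txnip rose 1.52-fold (log2 difference 0.60, SE 0.13, limma adjusted p = 0.00578, n = 3 and 3). Arrdc4 did the same, from 6.76, 6.81 and 6.77 to 7.37, 7.36 and 7.37, a rise of 0.58 (SE 0.10, adjusted p = 0.00138), and it was the one gene of the 5 in the glucose-responsive list to be called. The difference between the platforms was not tested, since their probes differ. Over the 28 mouse arrays Txnip and Arrdc4 had r = 0.538, and 0.283 after removal of the group means.

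Insr in U87M2 tumours was at 8.61, 8.77 and 8.98 with vehicle and 9.67, 9.42 and 9.31 with V-4084. The groups did not overlap, and Insr rose 1.60-fold (log2 difference 0.68, SE 0.17, limma adjusted p = 0.0213, n = 3 and 3). A second Insr probe set rose by 0.49 (adjusted p over probe sets 0.018). The call on the first was lost without vehicle array 1 or 2 or V-4084 array 1 or 2, at a lowest difference of 0.58. Pik3ip1 was at 6.76, 6.69 and 6.64 with vehicle and 6.94, 7.04 and 6.94 with V-4084, a difference of 0.28 (SE 0.08, adjusted p = 0.0667) that did not pass.

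Fbxo32 differed by 0.54 (SE 0.18, limma adjusted p = 0.11) in U87M2 tumours, from 6.81, 7.27 and 7.12 to 7.65, 7.66 and 7.50, without overlap. The mouse muscle markers lay at a mean of 6.61 to 7.54 on the vehicle arrays and 6.42 to 6.60 on the V-4084 arrays, with none of 16 called. With the muscle level as a covariate Fbxo32 was called, at 0.66 (limma adjusted p = 0.00487), and with the U87M2 arrays fitted alone at 0.54 (adjusted p = 0.0364). Over all 28 mouse arrays the deviations of Fbxo32 from its group means had r = 0.745 (permutation p = 0.0116, adjusted over the 10 members 0.116) and rho = 0.577 (permutation p = 0.0198) with those of the muscle markers, and r = 0.598 without the 2 farthest arrays. Irs2 (-0.03), Klf6 (0.05), Cited2 (0.16) and Sesn1 (0.16) did not pass, and their arrays overlapped.

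**Figure D4:**
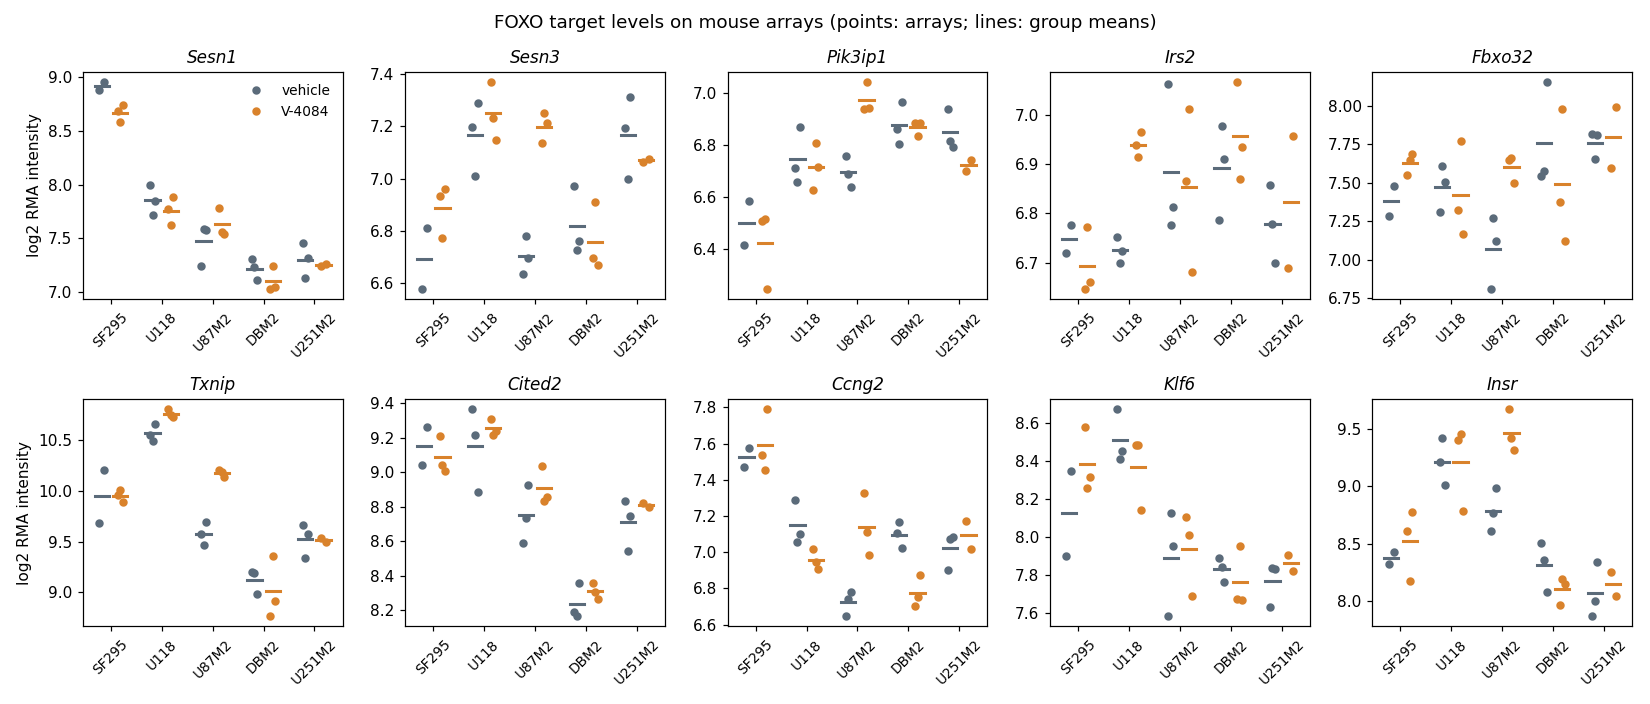
Each panel gives 1 FOXO target on the 28 mouse arrays, as log2 RMA intensity (y axis, own range per gene) by the line implanted (x axis). Points are arrays, grey for vehicle and orange for V-4084, and lines are group means. Sesn3, Txnip, Ccng2 and Insr lie higher with V-4084 in U87M2 tumours, Txnip at 10.14 to 10.21 against 9.46 to 9.70.

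In the other mouse groups limma called 0 of 10 members, in the SF295, U118, DBM2 and U251M2 tumours and in the average of the 5 lines, where it called 0.01%, 0.01%, 0%, 0.0401% and 0.0702% of all genes. At an unadjusted p under 0.05 the members numbered 1, 1, 1, 0 and 2. Over all 19938 mouse genes the counts were 1341, 1355, 458, 2670 and 1923. Ccng2 in DBM2 tumours was at 7.11, 7.17 and 7.02 with vehicle and 6.70, 6.75 and 6.87 with V-4084. The treated arrays lay lower, but the difference of -0.32 (SE 0.10) did not pass (limma adjusted p = 0.9997). Ccng2 was the one member whose effect differed between lines by the F test (limma adjusted p = 0.0496, against 0.341% of all genes), and the call was lost in 21 of 28 fits that left out 1 array. Against the mean of the other 4 lines, the U87M2 effect was higher for Txnip by 0.58, Ccng2 by 0.51 and Sesn3 by 0.47 (adjusted p = 0.0331, 0.0142 and 0.0314), and 1.63% of all genes were called, 1.07% as higher and 0.557% as lower.

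The wider lists were read in U87M2 tumours as well, where 2.49% of all mouse genes were called as higher and 1.22% as lower. Of 23 measured FOXO targets 3 rose, Tnfsf10 by 0.97, Rbl2 by 0.53 and Bcl2l11 by 0.31, and Gadd45a fell by 0.42 (limma adjusted p = 0.0464). BCL2L11 and TNFSF10 rose and GADD45A fell on the human arrays of this line as well. Of 24 PI3K-AKT pathway genes 5 rose, led by Inpp5d (0.55), Sgk1 (0.52), Inpp4b (0.51) and Igf1r (0.45), and of 8 p53 targets none was called. Inpp5d encodes SHIP1, a lipid phosphatase of blood cells. Beside these, 4 of 9 macrophage markers rose (C1qa by 0.64, Csf1r by 0.52, C1qb by 0.47 and Adgre1 by 0.45), with a list mean of 9.30 to 9.45 on vehicle and 9.49 to 9.99 on V-4084 arrays, and Fbln1 rose among 9 fibroblast markers. Of 7 adipocyte markers Lipe rose by 0.54 (list median 0.54, list mean 6.47 to 7.18 on vehicle and 6.86 to 7.63 on V-4084 arrays), and of 7 endothelial markers Tek rose by 0.43. Their part in the result was not tested. Igf1r on mouse arrays was highest in DBM2 vehicle tumours, 8.26 ± 0.20 (SD, n = 3) against at most 7.53 ± 0.11 elsewhere, as was human IGF1R at 11.10 ± 0.04 against at most 9.36 ± 0.04, and binding of human RNA to mouse probes was not tested.

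Vehicle tumours also differed in the members' mouse levels, for 9 of 10 by limma's F test against 54.3% of all mouse genes, and not for Irs2 (adjusted p = 0.343). Txnip was highest with U118 at 10.57 ± 0.08 (SD, n = 3) and lowest with DBM2 at 9.12 ± 0.12, where the human arrays had U118 lowest. Sesn1 was highest with SF295 at 8.91 ± 0.05 (SD, n = 2), apart from U118 at 7.85 ± 0.14 (n = 3), and the other lines lay between 7.22 and 7.47. Insr ran from 9.21 ± 0.20 with U118 to 8.07 ± 0.24 with U251M2, and Ccng2 from 7.52 ± 0.07 (n = 2) with SF295 to 6.72 ± 0.07 with U87M2 (SD, n = 3 elsewhere). Cited2 went from 9.15 ± 0.25 with U118 to 8.24 ± 0.10 with DBM2 (SD, n = 3), and SF295 was level with U118 at 9.15 ± 0.15 (n = 2). U118 and DBM2 were the highest and lowest lines on the human arrays as well, where U118 and SF295 overlapped too. Klf6, Fbxo32, Sesn3 and Pik3ip1 spanned 0.75, 0.69, 0.48 and 0.38 between their highest and lowest lines. The order of lines for Sesn3 was that of SESN3 on the human arrays, where the span was 3.09. Most neighbouring lines in that order overlapped on the mouse arrays. Deviations of a member from its group means on the mouse arrays and on the same-numbered human arrays were related for none of the 10 after adjustment over them. CITED2 came nearest, with r = 0.603 (permutation p = 0.00561, adjusted p = 0.0561) and rho = 0.578 (permutation p = 0.0102) over 27 pairs, and r = 0.483 without the 2 farthest.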

How the data were processed

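The authors summarised each array into log2 intensities per probe set, with RMA and Partek per the submitters' processing notes (versions and genome build: not given in the sources used here). These deposited log2 values were used unchanged. Array medians were 6.63 to 6.87 (human) and 6.11 to 6.31 (mouse). Probe sets naming 1 gene were kept, and the brightest on average stood for its gene. A model with 1 mean for each of the 10 groups was fitted per platform in limma 3.58.1 under R 4.3.3 (18 residual degrees of freedom, eBayes without trend), with two-sided p-values adjusted by Benjamini-Hochberg over all genes of a comparison and an adjusted p under 0.05 as a call. For arrays, their number limits the precision. Correlations used deviations from group means, permuted 100000 times within groups (smallest p 1e-05).

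The members, gene lists and tests were chosen with earlier results of these data known. Named were all 10 members, HGF and MET, up to 4 called genes with the smallest p of each pathway list in U87M2 and in the average (others were named after their values were seen), and the 2 genes nearest to each member. Motifs were searched in RefSeq promoters. The fit was tested on simulated data. Alternatives left out each array or line, the 3 narrow arrays or dim genes, and used quantile normalization, a robust trended fit, arrays of 1 line alone, the muscle level as a covariate or the replicate number as a block.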

Additional observations from a re-analysis of the deposited data

Results flagged for a closer look

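The size of the V-4084 effect differed between the 5 lines on human arrays for SESN1 (limma F test, adjusted p = 0.00072), SESN3 (3.18e-06), PIK3IP1 (0.000169), IRS2 (0.00217) and FBXO32 (0.0096), each highest in U87M2. On mouse arrays it differed for Ccng2 (adjusted p = 0.0496), with a difference of 0.42 in U87M2 tumours, which was called, and of -0.32 in DBM2 tumours, which was not (adjusted p = 0.9997). TXNIP in U87M2 was lower on all treated human arrays (difference -0.83) and higher on all treated mouse arrays (0.60), and that difference between platforms was not tested.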

How the results depend on the processing

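Of 76 counts of called members under the alternatives other than leaving out 1 array, 68 stayed within 1.5 times the reported count. The average of the 5 human lines called 4 members in place of 2 with quantile normalization, without the 3 narrow arrays or without DBM2, and 0 without U87M2. The members whose effect differed between lines fell from 5 to 0 on human arrays without U87M2, and from 1 to 0 on mouse arrays with the replicate block, with the muscle markers as a covariate or without U87M2. The cause was not tested. Leaving out 1 array in turn gave 6 to 9 called members in U87M2 cells and 2 to 5 in U87M2 tumours, 0 to 2 in the other 4 human lines and 0 to 0 in the other mouse lines, 2 to 3 and 0 to 0 in the averages, 5 to 6 (human) and 0 to 1 (mouse) whose effect differed between lines, and 9 to 10 and 8 to 9 whose vehicle level did. In SF295 cells this left 1 array in an arm, assumed to vary like the others. SESN1, SESN3, PIK3IP1, IRS2, FBXO32 and TXNIP in U87M2 cells and Sesn3 and Txnip in U87M2 tumours kept their calls in every alternative tried for them, and no member's called effect reversed. Within a platform, most same-numbered vehicle and V-4084 arrays of a line did not deviate together (3 of 14 human pairs and 3 of 13 mouse pairs had r over 0.1). The U87M2 pairs had r of 0.22, 0.01 and 0.32 on human arrays and -0.18, 0.18 and -0.15 on mouse arrays. The replicate number was therefore not taken as a pairing. With the replicate block U87M2 cells held 6 called members, CITED2 being lost.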
